A study of Mus musculus with 2 samples.

Results

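The genes described here encode the proteins of the cytoplasmic ribosome, measured in single tumor-infiltrating natural killer (NK) cells of mice. They were chosen by symbol: every gene row named Rpl or Rps followed by a digit, with Rplp0, Rplp1, Rplp2 and Rpsa, leaving out the Rps6k kinases and the symbols marked -ps as pseudogenes. The rule took 87 of 27998 gene rows, of which 53 had large subunit symbols and 33 small subunit symbols. The remaining member, Rps19bp1, encodes a protein that binds Rps19 and is not itself part of the ribosome. At least 200 unique molecular identifiers (UMIs, counts of distinct captured mRNA molecules) over both libraries were found for 84 members, and 81 members had at least 10000. The 3 members under that floor were Rpl3l (2 UMIs in the KO library and 1 in the WT library), Rpl10l (20 and 19) and Rpl39l (30 and 8), whose transcripts are known mainly from muscle or testis.

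The cells came from subcutaneous tumors of RMA-S, a mouse lymphoma line with little surface MHC class I, taken 2 weeks after injection. NK cells were sorted as CD3ε- NK1.1+ and captured on the 10x Genomics Chromium 3′ platform. One library was from mice whose genotype is given as Hif1a KO in NK cells (NK-Hif1a-/-, here KO), and the other from wild-type mice (WT). Hif1a encodes the oxygen-regulated subunit of the transcription factor HIF-1. The labels used here give neither the Cre driver of the deletion nor the number, age or sex of the mice. With 1 library per genotype no test was possible, genotype and library cannot be told apart, and each interval below covers counting error only.

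Ribosomal proteins are made in nearly equal amounts, because each ribosome carries a copy of most of them, and their mRNAs rank among the most abundant in lymphocytes. Most of these mRNAs begin with a C followed by a run of pyrimidines, the 5′ terminal oligopyrimidine (TOP) motif, through which the kinase mTORC1 and the protein Larp1 set their translation and stability. In resting NK cells ribosome content is low, and it is known to increase when cytokines drive growth and division. Sequencing counts mRNA and not ribosomes, so translation was not measured.

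The KO library held 3110 barcodes, of which 3067 passed at least 500 genes and at most 10% mitochondrial UMIs. In the WT library 3555 of 3574 passed. Median depth was 3793 UMIs per cell in KO and 4440 in WT, and 19 barcodes occurred in both libraries. All 13 NK markers were detected in both libraries, with Nkg7 in 99.3% of KO and 99.7% of WT cells and the NK1.1 gene Klrb1c in 89.3% and 92.7%. The 10 T cell markers summed to 506 counts per 1000000 UMIs (CPM) in KO and 544 in WT, against 28002 and 27694 for the NK markers. Of those 10 T cell markers, 1 was at 0 in KO and 2 in WT. Erythroid markers summed to 296 CPM in KO and 858 in WT, and their part in the results was not tested. Hif1a itself stood at 60.5 CPM (800 UMIs) in KO and 58.2 CPM (1132 UMIs) in WT. The deleted part of the gene is not given in the sources used here, and a tag from the 3′ end of the transcript does not report a deletion elsewhere in it, so this level checks nothing.

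The 87 genes gave a large part of all captured mRNA molecules, and a lower part in the KO library. Ribosomal protein UMIs made up 24.7% of all UMIs in KO (95% exact binomial interval 24.68 to 24.72) and 26.8% in WT (26.75 to 26.78), a difference of -2.07 percentage points. Across single KO cells the share ran from 5.199% to 48.5%, with a median of 23.0% and quartiles of 19.3% and 27.2%. WT cells ran from 2.68% to 45.6%, with a median of 25.3% and quartiles of 21.5% and 29.9%. The 2 distributions overlapped over most of their width. Large subunit genes gave 1.30 times the UMIs of small subunit genes in KO and 1.35 times in WT.

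Between the extremes of cell state this share differed more than between the libraries. The cells were grouped into 11 clusters with all ribosomal protein genes left out of both the scaling and the clustering, so that the members had no part in drawing them. Of the clusters, 9 were NK-like. Cluster 9, led by Cd3e, Cd3d, Cd3g and Bcl11b, was T-like although the sort was for CD3ε- cells. Cluster 8, led by Tmem176b, Tmem176a, Cxcr6, Il7r and Rora, was like type 1 and other innate lymphoid cells. The lowest medians were in cluster 6, led by Cx3cr1, S1pr5 and Zeb2, genes of terminally mature NK cells, at 17.3% in KO and 20.5% in WT. Cluster 5, led by the stress and activation genes Sgk1, Gadd45b, Ccl4 and Icam1, followed with 17.8% and 21.7%. Cluster 3, with Klrg1 and Prf1 among its leading genes, had 21.8% and 22.4%, and cluster 2, led by S1pr5, Itgam and the hemoglobin gene Hbb-bs, 22.2% and 22.4%.

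In cluster 4, led by the heat shock and immediate early genes Hspa1a, Fos and Jun, the medians were 22.2% and 24.99%, and in cluster 0, led by Vegfa, Nr4a1 and Nfkbiz, 23.7% and 25.2%. Higher shares were found in the 5 other clusters. Cluster 1, led by Ndrg1, Emb, Cd27 and the stem-like transcription factor gene Tcf7, had medians of 26.9% in KO and 28.4% in WT. In cluster 7, led by Spp1, Cd74, Lag3, Crtam and the polyamine synthesis gene Srm, they were 29.0% and 31.3%. Cluster 8 reached 28.6% and 28.9%. The T-like cluster 9 was highest in both libraries, at 32.3% and 34.0%. Cluster 10, led by Gzmg and Gzmd with the cell division genes Hist1h2ap and Birc5, had 28.2% over only 25 KO cells and 27.1% over 139 WT cells. The lowest and highest cluster medians were 15.02 points apart in KO and 13.5 in WT. Between the libraries the summed shares were 2.07 points apart, and the medians over cells were 23.0% in KO and 25.3% in WT. The first are extremes of 10 KO and 11 WT clusters and the second sets 1 library against 1 other, so their sizes are not like for like.

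**Figure D1:**
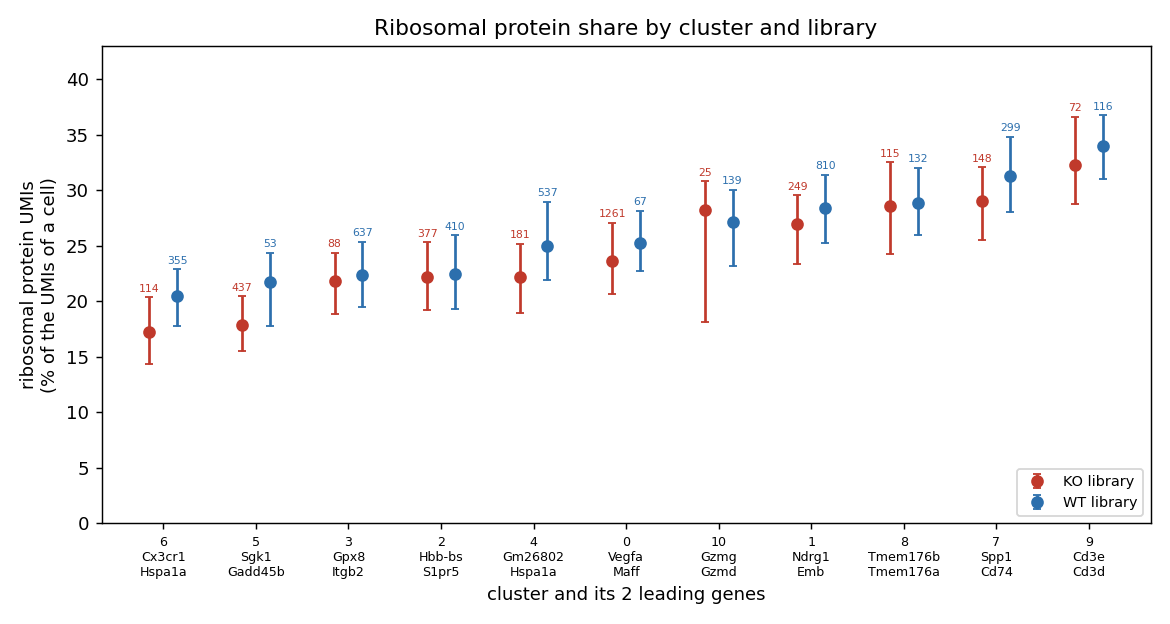
Ribosomal protein UMIs as a percentage of the UMIs of each cell (vertical axis) for the 11 clusters (horizontal axis, with 2 leading genes each), in the KO library (red) and the WT library (blue). Points are medians over cells, bars run from the lower to the upper quartile and numbers are cells; the KO point is lower in every cluster but cluster 10, where it rests on 25 cells.

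Within clusters the KO library was also the lower. In the 10 clusters with at least 50 cells of each library the KO median lay below the WT median 10 times, by -0.24 points in cluster 2 to -3.87 points in cluster 5. With UMIs summed over cells, KO was lower in 8 of these clusters and higher in clusters 2 and 8, by 0.08 and 0.18 points. The make-up of the libraries differed strongly. Clusters 0 and 5 made up 55.4% of the KO cells and 3.38% of the WT cells. Without these 2 clusters, an alternative chosen after the data were seen, the difference between the libraries was -0.82 points. When the KO clusters were given the weights they have in WT, it was -1.51 points.

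Depth moved with the share as well. The cells of each library were split by UMIs into 4 groups of like size. From the shallowest to the deepest, the median share was 20.1%, 21.1%, 24.1% and 27.6% in KO and 23.4%, 24.0%, 25.8% and 28.9% in WT. KO lay lower in each group, but the groups were cut within each library and those of KO were shallower. The shallowest held 1464 to 2954 UMIs in KO and 2364 to 3405 in WT, and the deepest began at 4991 and 6156. The groups therefore do not set the libraries side by side at equal depth. Over the cells of a library, the ribosomal protein share rose with the share that translation elongation and initiation factor mRNAs took of all other UMIs (Spearman's rho 0.73 over 3067 KO cells and 0.78 over 3555 WT cells). It fell with the share of NF-kB and immediate early genes (-0.32 and -0.12) and rose with the mitochondrial share (0.34 and 0.33). These are descriptions of cells that share a library and a depth range.

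Gene by gene, most members were slightly lower in the KO library and lay close together. The median log2 ratio of KO over WT, from CPM with 1 CPM added, was -0.15 over the 84 members with at least 200 UMIs, with quartiles of -0.18 and -0.07. It was 0.04 over all 8155 genes with that many UMIs. The members' median was -0.090 with KO weighted to the WT make-up and -0.067 without clusters 0 and 5. Of the 84, 79 were lower in KO and 5 higher. Among all genes, 43.6% were lower. The counting interval lay wholly below 0 for 76 members, wholly above 0 for 5 and held 0 for 3. Within 0.1 of the members' median lay 54 of them. The 361 other genes with at least 10000 UMIs had a median of -0.04 and quartiles 0.38 apart, against 0.11 for the members above that floor. These sets share the floor but were not matched by level. Of those other genes, 56.2% were lower in KO.

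**Figure D2:**
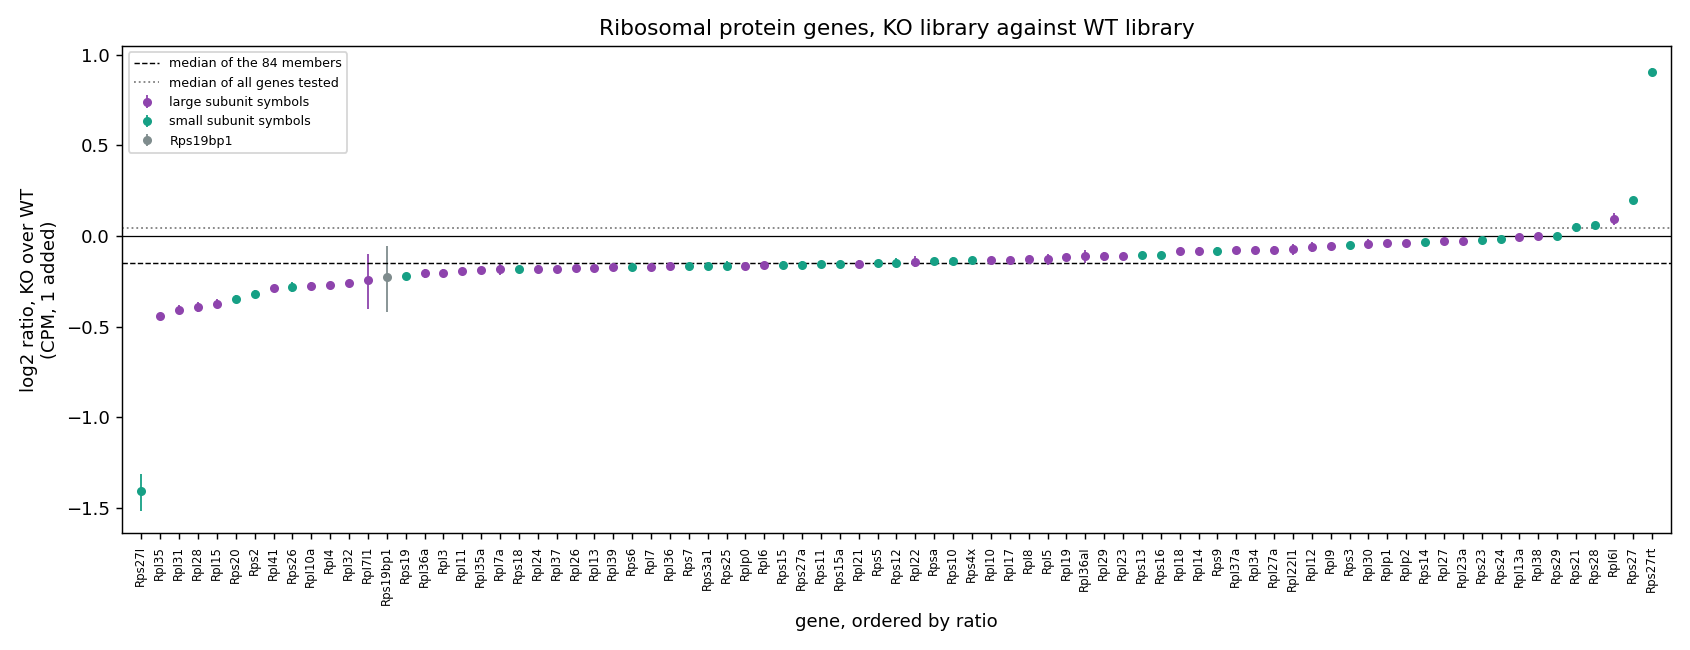
Log2 ratio of KO over WT (CPM with 1 added, vertical axis) for 81 of the 84 members with at least 200 UMIs, ordered by ratio, with 95% counting intervals as bars and colours for the subunit. Most members lie in a narrow band around the dashed line at -0.15, with Rps27l at -1.40 and Rps27rt at 0.90 at the ends.

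A small number of members left this band. At least 1.2-fold lower in KO were 12 members, where 11.7% of all genes and 15.2% of the other genes with at least 10000 UMIs were so called. At least 1.2-fold higher was 1 member, Rps27rt, where the shares were 22.3% and 19.4%. At 1.5-fold, Rps27l was lower (2.5% of all genes, 4.16% of the abundant others) and Rps27rt higher (5.46% and 7.76%). With KO weighted to the WT make-up, 3 members were at least 1.2-fold lower, and without clusters 0 and 5 it was 2. In each of the 10 compared clusters, 28 members were lower in KO, as were 1.42% of all genes and 10.5% of the other genes with at least 10000 UMIs. Of the 84 members, Rps27rt alone was higher in each, where the shares were 2.78% and 7.48%. The 2 subunits had like medians, -0.14 for 50 large subunit members and -0.15 for 33 small subunit members.

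Members with very many UMIs stayed near 0 or split around it. Rps27, a zinc finger protein of the small subunit, had 8973 CPM in KO and 7814 in WT, and was the member with the most UMIs in both libraries together. Rpl41, the smallest ribosomal protein, had 6320 and 7718 CPM, a log2 ratio of -0.29. Rpl13a, which also takes part in interferon-gamma-driven translational silencing, had 6098 and 6117 CPM. Rps29, a second small zinc finger protein, had 5639 and 5644 CPM. The intervals of Rpl13a and Rps29 held 0. The 5 members with the most UMIs together made up 13.2% of ribosomal protein UMIs in KO and 12.5% in WT.

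The stalk of the large subunit recruits elongation factors. Its base protein Rplp0 had 3929 CPM in KO and 4398 in WT (log2 ratio -0.16), while its tail proteins Rplp1 and Rplp2 differed less (-0.04 each) and Rpl12 beside them had -0.06. Rplp1, Rplp2 and Rpl12 were above 0 when clusters 0 and 5 were left out, at 0.03, 0.05 and 0.06. Rpl5 and Rpl11 join the large subunit as a complex with ribosomal RNA and bind the p53 regulator Mdm2 when ribosome assembly is disturbed. Their ratios were -0.13 and -0.19. Rpl10 and Rpl24, which join late in assembly, had -0.13 and -0.18. Rps27a, made as a fusion with ubiquitin, had -0.16.

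At the rim of the tunnel through which new proteins leave the ribosome, the 8 members divided. Rpl35 and Rpl31 were among the lowest abundant members, at -0.44 and -0.41. Rpl35 had 2361 CPM in KO and 3207 in WT, and was lower in KO in 10 of 10 clusters. Rpl26, Rpl39, Rpl22, Rpl17 and Rpl19 lay between -0.18 and -0.11, and Rpl23a was at -0.03. Around the mRNA path of the small subunit Rps2 had -0.32 (2355 and 2937 CPM) and Rps26 -0.28, whereas Rpsa had -0.14, Rps3 -0.05, Rps14 -0.03 and Rps28 0.06. Members at the same site of the ribosome thus differed in ratio.

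Members that are second copies or variants of another gene were mixed. Rpl22l1, the paralogue of Rpl22, had 1099 CPM in KO and 1155 in WT (log2 ratio -0.07), beside 1054 and 1162 for Rpl22 (-0.14). Rpl36al, a copy of Rpl36a, had -0.11. Rpl7l1 was sparse (42.05 and 49.99 CPM) with -0.24, as was Rps19bp1 (29.1 and 34.3 CPM) with -0.23. The ratio of Rpl7l1 was -0.089 with KO weighted to the WT make-up and -0.0025 without clusters 0 and 5, and that of Rps19bp1 was 0.20 and 0.08.

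Among the 81 abundant members (10000 UMIs or more), 11 fell short of WT by 1.2-fold or more, where 15.2% of the other genes with at least 10000 UMIs did. The 11 include Rpl35, Rpl31, Rpl28, Rpl15, Rps20, Rps2 and Rpl41. Rpl28 had 1386 CPM in KO and 1817 in WT, and Rpl15 1479 and 1916. They were picked by their ratio, so their lower level as a group is a description. Together they took 9.53% of ribosomal protein UMIs in KO and 11.1% in WT. Their share was lower in KO in all 10 compared clusters. It also rose with depth, from 8.44% in the shallowest to 10.5% in the deepest of the 4 depth groups in KO and from 9.22% to 12.4% in WT. KO was lower in each group, but each KO group was also shallower than its WT counterpart. Lengths and GC content were taken from the longest annotated transcript of each gene, protein-coding where present, which need not be the one expressed. The median GC content was 50.2%, against 51.7% for the 70 other abundant members, and the median length 1049 against 896.5 bases.

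**Figure D3:**
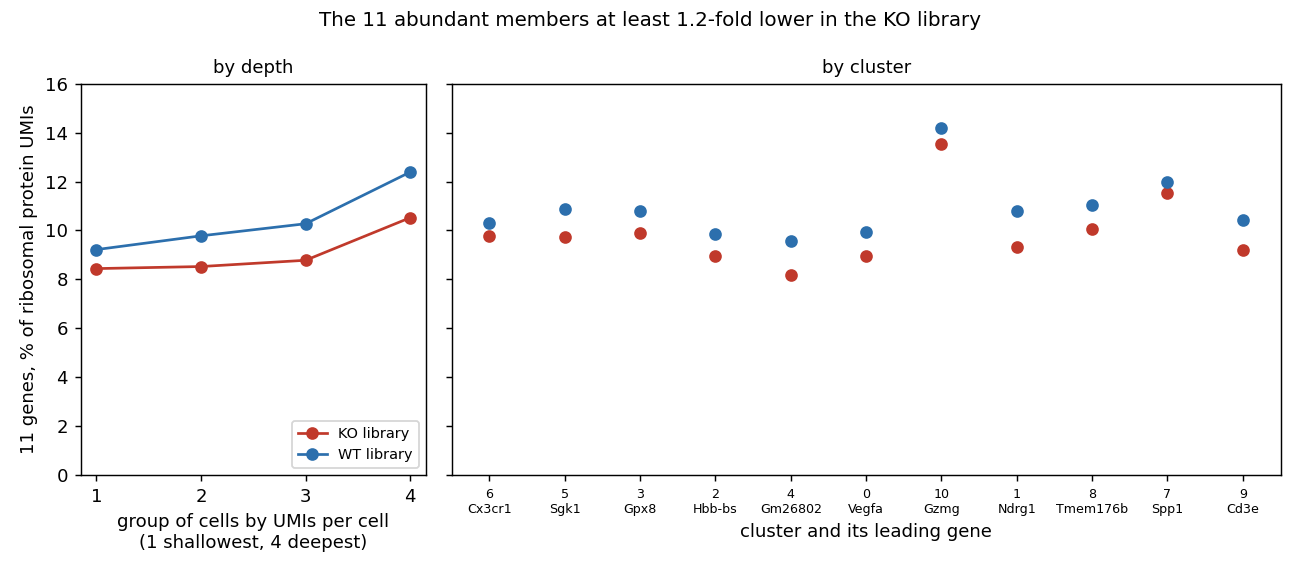
Share of ribosomal protein UMIs (vertical axis, percent) taken by the 11 abundant members that were at least 1.2-fold lower in KO, by group of cells ordered by UMIs per cell (left, 4 groups of like size cut within each library, so not at equal depth) and by cluster (right), for the KO (red) and WT (blue) libraries. WT points lie above KO points throughout, and cluster 10 is highest in both libraries, at 13.5% and 14.2%.

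Several of the same genes also differed between cell states. In cluster 10, the cluster with granzyme genes and cell division genes, 12 of 81 abundant members took at least a 1.2-fold larger part of ribosomal protein UMIs than in the other cells of the same library, in both libraries. Among them were Rpl28, Rps2, Rps20, Rpl35, Rpl31, Rpl41, Rps12 and Rpsa. Of these 12, 9 are among the 11 genes above. The part of Rpl28 was higher by 0.83 on the log2 scale in KO and 0.55 in WT, and that of Rps2 by 0.67 and 0.62. Lower in cluster 10 in both libraries were, among others, Rps27rt (-1.09 and -0.96), Rps27 (-0.99 and -0.85), Rpl34 (-0.46 and -0.31), Rps14 and Rpl37a. No member differed by that much in opposite directions. The KO side of these values rests on 25 cells. How many other genes differ by as much between the same cells was not counted, for cluster 10 or for cluster 4 below. In cluster 4, 5 members took at least a 1.2-fold smaller part in both libraries, and Rps2, Rpl15, Rpl31, Rps20 and Rpl35 are all among the 11. The 11 genes took 8.20% of ribosomal protein UMIs in cluster 4 in KO and 9.57% in WT, the lowest of all clusters. The cells of cluster 4 were also the shallowest, with medians of 3052 UMIs in KO and 3660 in WT. The part of depth in this low share was not tested.

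Cluster 10 made up 0.815% of the KO cells and 3.91% of the WT cells. Its weight in the summed UMIs was larger, with 312529 of 13222535 UMIs in KO and 2232904 of 19462712 in WT. Genes high in cluster 10 thereby have lower ratios in the summed counts. The overlap with the genes picked by ratio is thus not independent of how they were picked. Without cluster 10, Rpl35 had a log2 ratio of -0.41 and Rpl28 of -0.35. With KO weighted to the WT make-up the ratios were -0.29 and -0.19, and without clusters 0 and 5 they were -0.25 and -0.22, so Rpl28 in both settings and Rpl35 in the second were no longer 1.2-fold lower. The median UMI count of its cells was 13731 in KO and 13481 in WT, the deepest of all clusters, and the part of depth in its make-up was not tested. Other clusters differed in few members. In the T-like cluster 9 Rpl10 (-0.64 in KO and -0.54 in WT) and Rpl36al (-0.51 and -0.47) took smaller parts, and in clusters 7 and 8 Rpl22l1 did. In cluster 7 Rps27 and Rps27rt took smaller parts.

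Rps27 and its relatives held both ends of the ratios. Rps27 lies on chromosome 3, and the retrogene Rps27rt and the paralogue Rps27l on chromosome 9 (chr9:114982366-114982739, minus strand, and chr9:66946086-66949516, plus strand, GENCODE M21 on GRCm38). Rps27l is known as a target of p53. The coding sequences below, open reading frames of equal length found in the GENCODE transcripts, show how far the 3 genes can be told apart by sequence. Capitals mark bases of Rps27l that differ from Rps27. Rps27rt has the same 255 coding bases as Rps27, and Rps27l differs at 61, of which 53 are at the third position of a codon.
Rps27: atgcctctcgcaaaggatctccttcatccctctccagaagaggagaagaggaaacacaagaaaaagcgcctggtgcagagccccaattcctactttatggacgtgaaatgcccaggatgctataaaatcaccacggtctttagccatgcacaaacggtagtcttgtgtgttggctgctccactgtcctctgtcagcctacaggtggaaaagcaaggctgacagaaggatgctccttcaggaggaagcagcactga
Rps27l: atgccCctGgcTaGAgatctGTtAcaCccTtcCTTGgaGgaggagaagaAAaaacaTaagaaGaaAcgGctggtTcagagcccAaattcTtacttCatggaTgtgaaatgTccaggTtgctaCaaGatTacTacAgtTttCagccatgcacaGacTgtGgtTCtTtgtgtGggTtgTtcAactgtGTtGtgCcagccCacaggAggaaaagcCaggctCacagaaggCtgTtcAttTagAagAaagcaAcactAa

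Rps27l had 991 UMIs in KO and 3893 in WT, or 74.9 and 200.02 CPM, a log2 ratio of -1.40 (counting interval -1.52 to -1.32). By cluster, its KO level ran from 37.2 CPM in cluster 4 to 288 in cluster 10 and its WT level from 122 to 411 in the same clusters. KO was lower in 10 of 10 compared clusters, with ratios of -1.69 to -0.88. Over the alternatives the ratio ran from -1.45 to -0.97. None of the 50-base stretches in the last 300 bases of its transcript occurs in another gene's transcript, so its counts were not shared with a copy on that measure.

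Its neighbours on the chromosome were lower as well. After its values were seen, the genes with at least 200 UMIs were followed along the chromosome on both sides. A run of 9 consecutive ones (chr9:66060222-67049406, 989 kb) was at least 1.2-fold lower in KO, 8 of them at least 1.5-fold. In order they were Ppib, a folding enzyme of the endoplasmic reticulum (-1.23), the sorting nexin gene Snx1 (-0.89), the kinase gene Dapk2 (-1.09), the ubiquitin ligase gene Herc1 (-0.70), the deubiquitinase gene Usp3 (-0.92), the small GTPase gene Rab8b (-0.52), Rps27l, the mitochondrial filament gene Lactb (-1.10) and the tropomyosin gene Tpm1 (-0.80). Summed, the 9 genes had 529 CPM in KO and 1097 in WT, and 88 of 90 pairs of gene and cluster were lower in KO. The genes on either side were higher in KO, with Csnk1g1 at 0.56 and Trip4 at 0.89 on one side and the nuclear receptor gene Rora at 0.35 on the other. Among 7919 genes placed on the genome, no other run of genes at least 1.2-fold lower reached that length, and the longest other run had 6. A cause of the run was not tested.

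**Figure D4:**
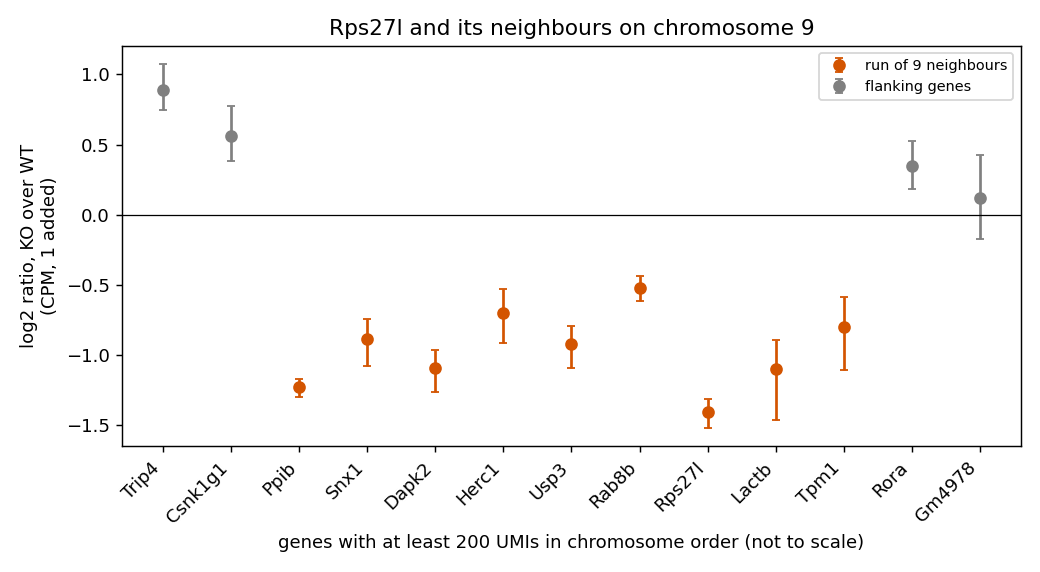
Log2 ratio of KO over WT (vertical axis, with 95% counting intervals) for Rps27l and the genes next to it on chromosome 9 with at least 200 UMIs, in chromosome order (horizontal axis, not to scale). The 9 genes from Ppib to Tpm1 lie between -1.40 and -0.52, and the 4 flanking genes lie above 0.

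Rps27rt stood at the other end, with 38181 UMIs in KO and 30011 in WT, or 2888 and 1542 CPM, a log2 ratio of 0.90 (counting interval 0.88 to 0.93). It was higher in KO in each of the 10 compared clusters, at ratios of 0.68 to 1.02. Its 10 neighbours within 1 Mb had a median ratio of 0.16 and 0 of them reached 1.5-fold, against 7 of 9 for Rps27l. Its transcript aligned to that of Rps27 over 341 bases without a mismatch. Of the 50-base stretches at the end of the Rps27 transcript, 100% occur in transcripts of other genes, and 88.4% of those of Rps27rt do. The counts of the 2 genes therefore depend on how reads that match both were assigned, which is not given in the sources used here. The sum of both genes was 11861 CPM in KO and 9356 in WT, a log2 ratio of 0.34.

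Rps27rt took 24.3% of the UMIs of the pair in KO and 16.5% in WT. Across clusters this share lay between 23.8% and 24.9% in KO and between 15.5% and 17.0% in WT, so it changed little with cell state and did not overlap between the libraries. The same was seen for other near-identical copies, most of them the -ps rows that the rule leaves out. Together with Rps27rt and Rpl6l, a processed pseudogene in GENCODE M21 that the rule keeps, there were 18 such copies, 90.7% to 100% identical to their parent genes (median 99.0%). Of 17 with at least 200 UMIs, 14 had a higher ratio than their parent, as did 13 of 13 with at least 2000 UMIs, Rpl10-ps3 by only 0.003. The median log2 ratio was 0.09 for the 17 copies and -0.15 for their parents, against 0.04 over all genes. The median of the copies thus lay nearer to that of genes in general than the median of their parents did. This holds for the medians only, as single copies, Rps27rt and Rpl36-ps3 among them, lay farther from it than their parents. For 11 of 17, each cluster's share in KO was above each cluster's share in WT, and for 0 the reverse held. Clusters of 1 library are not replicates, and the same count over other pairs of genes was not taken, so it is a description only. Rpl36-ps3 took 10.2% of its pair in KO and 6.43% in WT, Rpl13-ps3 12.8% and 9.42%, Rpl23a-ps3 26.9% and 22.3%, and Rpl6l 29.9% and 26.4%. Rpl10-ps3 took 22.2% in both. The -ps rows summed to 0.836% of all UMIs in KO and 0.755% in WT.

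**Figure D5:**
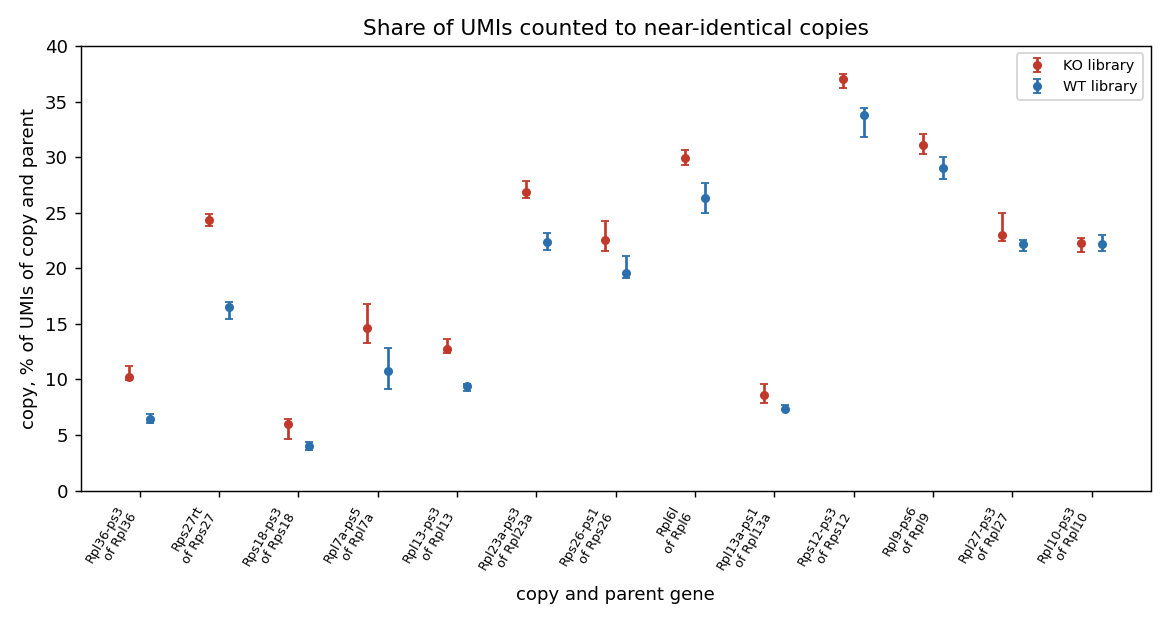
UMIs counted to a copy as a percentage of those counted to copy and parent (vertical axis) for the 13 copies with at least 2000 UMIs, ordered by the difference in log2 ratio, in KO (red) and WT (blue). Points are library totals and bars the lowest and highest of the 10 compared clusters; the shares do not overlap for Rps27rt (24.3% against 16.5%) and are alike for Rpl10-ps3.

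Sharing of sequence with other genes is common among the members. In the last 300 bases, where 3′ libraries are read, 58 of 87 members hold a 50-base stretch that also occurs in another gene's transcript, and for 40 members at least 50% of the stretches do. Levels of these members are uncertain to that degree. Rpl31 and Rpl28, by contrast, shared none.

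The start sites were searched for short pyrimidine motifs, because members moved together and most are known to have a TOP start. The windows below hold 20 bases before and 20 bases from the RefSeq start site (GRCm38.p6, transcribed strand), for the Rps27 relatives, members at both ends of the ratios, with and without a match, and Rpl13a. Capitals mark matches to any of 3 short pyrimidine motifs. The first is CTTTC, and the second, CCTTT, can overlap it by all but its first base. The third, with a T in place of the last C of the first, is CTTTT.
Rps27 (chr3:90213629-90213668, minus strand): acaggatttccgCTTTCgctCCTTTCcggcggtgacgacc
Rps27rt (chr9:114982720-114982759, minus strand): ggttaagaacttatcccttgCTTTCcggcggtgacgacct
Rps27l (chr9:66946066-66946105, plus strand): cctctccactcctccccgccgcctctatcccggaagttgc
Rpl35 (chr2:39005112-39005151, minus strand): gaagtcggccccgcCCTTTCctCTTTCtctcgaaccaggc
Rpl28 (chr7:4792945-4792984, plus strand): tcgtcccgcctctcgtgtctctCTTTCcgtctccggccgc
Rpl15 (chr14:18270967-18271006, minus strand): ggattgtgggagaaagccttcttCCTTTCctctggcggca
Rpl31 (chr1:39367831-39367870, plus strand): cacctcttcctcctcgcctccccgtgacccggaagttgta
Rps2 (chr17:24720043-24720082, plus strand): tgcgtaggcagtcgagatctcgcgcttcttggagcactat
Rpl41 (chr10:128549149-128549188, minus strand): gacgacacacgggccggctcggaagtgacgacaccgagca
Rpl13a (chr7:45128726-45128765, minus strand): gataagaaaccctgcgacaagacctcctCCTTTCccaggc
Rps28 (chr17:33824543-33824582, minus strand): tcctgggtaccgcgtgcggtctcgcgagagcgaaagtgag

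Of 66 members with a RefSeq start, 22 (33.3%) held at least 1 of the 3 motifs in this window on the transcribed strand. The share was 8.95% of 6281 genes with at least 200 UMIs, 10.8% of all 27025 genes with a start and 10.3% of 68 mitochondrial ribosomal protein genes. On the opposite strand 7.58% of the members and 6.69% of the genes with at least 200 UMIs held a match. CTTTC was the most frequent, in 28.8% of the members. Matches lie in windows of members far apart in ratio, such as Rpl35 and Rps27, and none lies in those of Rps27l, Rpl31, Rps2, Rpl41 and Rps28. The search took 3 fixed strings anywhere in the window and did not look for a C at the start followed by pyrimidines. A window without a match is therefore not shown to lack a TOP start.

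The spread of the members from cell to cell was set beside that of other genes with a mean of at least 1 UMI. Cells were thinned to 2500 UMIs each, which left 2649 KO cells and 3463 WT cells and left out 418 and 92 shallower ones. The coefficient of variation beyond counting noise had a median of 28.0% in KO and 26.8% in WT over the 81 members with a mean of at least 1 UMI. It was 40.7% over 263 other genes in KO and 38.4% over 256 in WT. The Fano factor (variance over mean), which grows with the mean, went the other way, with medians of 1.56 for the members and 1.36 for the others in KO and 1.54 and 1.29 in WT. The other genes were not matched to the members by mean, so neither measure ranks them at equal level. Rps2 varied most in both libraries, while Rpl34 varied least in KO and Rpl7 in WT. The sum of all members had a coefficient of variation of 24.1% in KO and 23.2% in WT. Between clusters, the lowest and highest level of a member were a median of 0.83 log2 units apart in KO and 0.74 in WT when taken over all UMIs. Taken within ribosomal protein UMIs they were 0.28 and 0.27 apart, so the members' levels mostly went up and down together from cluster to cluster.

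Other genes of the translation apparatus gave ratios of a like size, and so did 22 housekeeping genes (median -0.13). Among ribosomal proteins whose symbols the rule does not take, Fau and Gnb2l1 had log2 ratios of -0.05 and -0.17. Of 30 elongation and initiation factor genes 23 were lower in KO, with a median of -0.12, where 43.6% of all genes were lower. Eif4a2 and Eif5 were higher (0.35 and 0.35) and Eif3i lower (-0.33). Of 17 other mRNAs with a TOP start 16 were lower, with a median of -0.17, among them Vim (-0.67), Nap1l1 (-0.41) and Naca (-0.35). This list is not separate from the others: 10 of the 17 are also among the factor genes and 1 is in the assembly list, and of the 6 in neither, 5 were lower. Of 37 ribosome assembly and rRNA processing genes 12 were at least 1.2-fold lower and 3 higher, with a median of -0.12. Of all genes, 11.7% and 22.3% were so called. Nop16 (-0.61) and Nhp2 (-0.51) were lower and Dkc1 (0.38) higher.

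Mitochondrial ribosomal protein genes, which share function but not the cytoplasmic ribosome, had a median of -0.24, with 32 of 74 at least 1.2-fold lower and 0 higher, and Mrpl47 (-0.68), Mrpl27 (-0.61) and Mrpl45 (-0.52) farthest from 0. Genes of the mTORC1 pathway and its TOP regulators lay on the other side, with a median of 0.21 over 17 genes, 5 of them at least 1.2-fold higher and 2 lower, where 22.3% and 11.7% of all genes were so called. This list holds both activators and inhibitors of the pathway, so its median gives no direction of mTORC1 activity. Myc, a driver of ribosome synthesis, had 58.6 CPM in KO and 37.1 in WT (0.65), and the mTORC1 subunit gene Rptor 34.5 and 22.7 (0.58). Among 22 housekeeping genes the median was -0.13, with the glycolysis gene Pgk1 at -1.06. The lists that track cell state differed more. NF-kB and immediate early genes had a median of 0.96 over 26 genes, led by Nfkbid (2.29), and genes of S and G2M phase -1.16 over 23, with Hist1h2ap at -2.25. Their part in the lower ribosomal protein share of the KO library was not tested. Scaling by median-of-ratios factors moved the medians of the members, of the 9 lists and of all genes by about -0.05, and none of these medians changed sign except that of all genes, which became 0.00.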

How the data were processed

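Values were the deposited UMI counts per gene and cell, raw and unnormalized, for 1 KO and 1 WT library. The submitters' processing notes name mm10, Seurat and Cell Ranger 2.0.2; neither the annotation nor the handling of reads matching several genes is stated in the sources used here. Kept cells had 500 genes or more and no more than 10% mitochondrial UMIs; no doublet caller was run. UMIs were summed per library and scaled to CPM, and log2 ratios used 1 CPM added. Intervals are exact binomial ones at 95%; on simulated counts 95.6% of the intervals of 8155 genes held the true ratio. Clusters came from scanpy 1.11.5 (2000 variable genes, 30 components, 15 neighbours, Leiden resolution 0.8), named from marker lists. Members, lists and alternatives were chosen with earlier results of these data known. Named are members with a special role, the 5 with the most UMIs, the 6 highest and 6 lowest ratios, the 6 with the largest range over clusters, and up to 3 genes per list by size of ratio. Genes at the 1.2-fold threshold, the copies, the run around Rps27l and genes differing in single clusters were added after their values were seen. Sequences were matched to GENCODE M21 transcripts and RefSeq starts with Biopython 1.88. Some members and list genes that these rules name are not reported here.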

Additional observations from a re-analysis of the deposited data

How the results depend on the processing

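Each log2 ratio and share rests on 1 library per genotype, so no alternative tests a spread between mice. The difference in ribosomal protein share, -2.07 points, was -2.27 over all barcodes, -2.03 at no more than 5% mitochondrial UMIs, -2.20 in NK-like clusters, -2.38 without the 3% of cells with the most UMIs, -1.62 in cells of 2500 to 6000 UMIs, -2.47 with each cell weighing the same, -1.51 with KO weighted to the WT make-up and -1.99 with pseudogene rows added. In the same order, the members' median log2 ratio was -0.16, -0.16 and -0.17 over all barcodes, in NK-like clusters and without the deepest cells, -0.12 at 2500 to 6000 UMIs, -0.17 with equal weights, -0.090 at the WT make-up and -0.13 with pseudogene rows. It was -0.14 without cluster 10, which has granzyme genes first and S and G2M genes among its 10 leading ones, in the strict set and over all members with a UMI, and -0.19 both when scaled by the UMIs of all other genes and by median-of-ratios factors. Members at least 1.2-fold lower numbered 3 at the WT make-up. Those at least 1.2-fold higher numbered 6 with pseudogene rows and 3 over all members with a UMI, of which 2 were at least 1.5-fold higher. None was at least 1.5-fold lower in the strict set (0), which does not hold Rps27l, the only member at that bar over all kept cells. Without Rps27l, Rps27rt, Rpl6l and Rps27, chosen after the data were seen, the share difference was -2.31 points and the median -0.15. Then 0 members were at least 1.2-fold higher, 1.5-fold lower or 1.5-fold higher, which follows from leaving out Rps27rt and Rps27l. Without clusters 0 and 5, also chosen afterwards, the share difference was -0.82 points and the median -0.067, with 2 members at least 1.2-fold lower. The cause was not tested. At Leiden resolution 0.4 the cluster medians spanned 11.3 points in KO and 11.1 in WT. Of 39 named members with a ratio, 25 were below 0 and 5 above 0 in each setting, and 9 took both signs, 0 of them at least 1.2-fold. No paired analysis was possible because each genotype has 1 library. Depth limited Rpl3l, Rpl10l and Rpl39l, for which no ratio is given.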
